A study of Mus musculus with 12 samples.

Results

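The genes described here are 38 genes of glucose and lactate transport, glycolysis, pyruvate dehydrogenase control, oxygen sensing and the response to low oxygen. They were listed by gene name, with earlier results of these data known, and each probe set annotated to exactly 1 of the 38 symbols was taken. Of the 38 genes, 35 had such a probe set, with 72 of the 45101 probe sets on the array between them. After a filter on dim genes 32 of the 38 were tested, among 13811 genes in all.

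Expression was measured on Affymetrix arrays in mouse embryonic stem cells of genotype Tcf3+/+ (wild type) or Tcf3-/- (knockout). Each genotype was sampled in control medium and after 24 h with recombinant Wnt3a at 50 ng/ml, a secreted ligand that stabilises beta-catenin, with 3 arrays in each of the 4 groups. All groups shared the same base medium, with 15% serum and Lif at 1000 U/ml, on gelatin without feeder cells. Tcf3 is the older name of Tcf7l1, a DNA-binding protein of the Tcf/Lef family that represses many of its targets. The sources used here name neither the cell line, the number of clones nor the deleted exons, so the genotype cannot be told apart from other differences between the cells. Replicates carry numbers in the labels, but nothing says that they were separate cultures, and the p-values then reflect only how far these arrays differ, which may be technical.

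Glycolysis splits glucose into pyruvate. Glucose enters through Slc2a carriers, is trapped by hexokinase, and is committed by phosphofructokinase, which fructose-2,6-bisphosphate made by Pfkfb enzymes activates. Pyruvate is either reduced to lactate and exported through Slc16a carriers, or enters mitochondria through pyruvate dehydrogenase, which Pdk kinases switch off. Prolyl hydroxylases of the Egln family mark Hif1a protein for destruction when oxygen is present, and without oxygen Hif1a raises many glycolytic genes, several Pdk and Pfkfb genes and its own regulator Egln3. Embryonic stem cells are known for high glycolysis even in air.

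Hypoxia-inducible factors bind a short core with the letters ACGTG or GCGTG. Letters were searched on both strands in RefSeq windows of the 250 bases before each annotated start on mouse assembly GRCm38.p6, where 36 of the 38 symbols matched (Slc2a3 and Bnip3l did not). The windows of 5 members whose expression differed the same way between the genotypes in both media are printed here, to show where the core lies, 5′ to 3′ on the gene's own strand, with the core in capitals and its reverse form as CACGT or CACGC. Pfkfb3 has 2 annotated starts.
Slc2a1 (chr4:119108495-119108744, strand plus): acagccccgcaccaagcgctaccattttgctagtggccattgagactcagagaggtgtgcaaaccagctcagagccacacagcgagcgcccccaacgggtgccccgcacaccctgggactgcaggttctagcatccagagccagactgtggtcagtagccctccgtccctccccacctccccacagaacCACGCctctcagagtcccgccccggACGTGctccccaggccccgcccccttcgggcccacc
Pfkp (chr13:6648772-6649021, strand minus): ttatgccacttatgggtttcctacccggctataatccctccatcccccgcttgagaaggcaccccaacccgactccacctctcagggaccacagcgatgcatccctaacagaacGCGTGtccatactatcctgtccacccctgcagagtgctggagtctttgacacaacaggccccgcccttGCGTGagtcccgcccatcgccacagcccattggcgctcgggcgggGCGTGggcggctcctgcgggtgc
Pfkfb3 (chr2:11502091-11502340, strand minus): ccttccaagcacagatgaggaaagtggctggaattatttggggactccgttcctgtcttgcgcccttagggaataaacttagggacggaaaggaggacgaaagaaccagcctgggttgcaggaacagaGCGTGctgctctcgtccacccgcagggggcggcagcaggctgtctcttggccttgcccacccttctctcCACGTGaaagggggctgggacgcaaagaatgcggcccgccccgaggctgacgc
Pfkfb3 (chr2:11553930-11554179, strand minus): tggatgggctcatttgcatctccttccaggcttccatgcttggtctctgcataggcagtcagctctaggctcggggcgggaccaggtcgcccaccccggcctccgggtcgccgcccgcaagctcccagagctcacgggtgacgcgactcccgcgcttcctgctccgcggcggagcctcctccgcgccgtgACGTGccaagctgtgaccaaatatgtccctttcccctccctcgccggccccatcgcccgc
Bnip3 (chr7:138909507-138909756, strand minus): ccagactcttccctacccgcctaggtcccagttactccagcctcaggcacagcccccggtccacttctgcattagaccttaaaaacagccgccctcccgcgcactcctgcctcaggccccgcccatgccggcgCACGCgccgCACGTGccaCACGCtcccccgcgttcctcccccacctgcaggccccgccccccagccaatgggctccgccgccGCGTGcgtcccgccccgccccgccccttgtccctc
Ankrd37 (chr8:45999851-46000100, strand minus): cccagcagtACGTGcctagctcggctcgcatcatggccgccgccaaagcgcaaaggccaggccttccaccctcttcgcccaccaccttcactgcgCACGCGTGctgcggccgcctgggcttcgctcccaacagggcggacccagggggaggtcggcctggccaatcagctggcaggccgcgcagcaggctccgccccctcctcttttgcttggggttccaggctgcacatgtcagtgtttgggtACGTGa
The Pfkp window held 3 core matches and the Bnip3 window held 5, counting CACGTG on each strand and counting overlapping matches separately, as in the CACGCGTG of Ankrd37. At least 1 match was found in 41 of 51 windows of all 36 members (80.4%), against 38.6% of all 32851 windows of that length and 53.3% of the 14141 windows of genes tested here. Median GC content was 61.6% in the members' windows, 52.4% in all windows and 59.2% in those of tested genes. Letters of the Tcf/Lef core, CTTTGA or CTTTGT on either strand, occurred in 9 of the 51 windows (17.6%), in 27.6% of all windows and in 21.9% of those of tested genes. Of the windows printed, the 1 of Pfkp held such letters, left in lower case. A match is a description of letters, not evidence that a factor binds there.

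Values are deposited intensities on the log2 scale, and each gene is read from its brightest probe set by mean signal. Each difference is between group means of 3 arrays with the standard error (SE) of a limma fit over all 12 arrays, and a gene is said to have risen or fallen where its Benjamini-Hochberg adjusted p over the 13811 genes was below 0.05. On the knockout control arrays the brightest Tcf7l1 probe set read 9.37 to 9.58, against 10.77 to 10.90 on the wild-type control arrays. In Wnt3a medium the ranges were 8.89 to 9.22 and 10.21 to 10.50. The signal was thus lower on all knockout arrays without falling to the dim end of the scale, and whether these probes lie in the deleted part is not given. All 12 embryonic stem cell markers examined were above the floor of 5.56 on every array. Markers of fibroblasts and feeders summed to 9.60 to 9.92 on all 12 arrays. Of these 12 genes, 6 were above the floor on every array, while Col3a1 and Lum were below it throughout. By limma 3 of the 9 tested rose and 3 fell in knockout cells in control medium, so the sum hides opposed differences. In Wnt3a medium 1 rose and 3 fell. Of all genes, 19.9% rose and 22.3% fell in control medium, and 13.2% and 14.7% in Wnt3a medium. Summed stem cell markers read 16.42 to 16.54 on wild-type control arrays, 16.79 to 16.81 on knockout control arrays, 16.67 to 16.77 with Wnt3a in wild type and 16.83 to 16.90 with Wnt3a in knockout cells. By limma 8 of these 12 genes rose and 1 fell in knockout cells in control medium. In Wnt3a medium 5 rose and 2 fell. Sums of the other marker lists also differed between genotypes, except that endoderm sums overlapped in control medium. The genes within a list did not all share the direction. Summed trophectoderm markers read 11.69 to 11.93 on wild-type control and 11.31 to 11.39 on knockout control arrays, and 11.76 to 11.78 against 11.14 to 11.28 with Wnt3a. Of the 9 tested, 4 fell and 0 rose in knockout cells in control medium by limma (5 and 0 at an unadjusted p under 0.05). Of all genes, 22.3% fell and 19.9% rose there. The keratin Krt7 was among the 4, averaging 6.06 on knockout and 9.36 on wild-type control arrays. With Wnt3a 4 of the 9 fell and 1 rose, against 14.7% and 13.2% of all genes. Eomes leaned upward, at 8.12 on knockout against 7.73 on wild-type control arrays, and 8.43 against 7.75 with Wnt3a. Summed endoderm markers read 10.00 to 10.33 on wild-type control, 10.02 to 11.92 on knockout control, 10.67 to 11.14 on wild-type Wnt3a and 11.25 to 11.46 on knockout Wnt3a arrays. Of the 9 endoderm genes tested, 2 rose and 0 fell in knockout cells in control medium by limma (5 and 0 at an unadjusted p under 0.05). In Wnt3a medium 0 were called. Knockout control array 2 stood apart for the endoderm factor Sox17, at 8.31 against 5.48 and 6.78 on the other knockout control arrays and 5.05 to 5.83 on wild-type control arrays. Summed neural ectoderm markers were lower on knockout arrays, at 10.20 to 10.36 against 10.69 to 10.77 in control medium and 9.87 to 10.18 against 10.23 to 10.67 with Wnt3a. Of the 7 tested, 2 fell and 0 rose in knockout cells in each medium by limma, with medians of 0.05 and -0.29. In control medium Nes averaged 8.28 on knockout and 9.62 on wild-type arrays, while Pax6 leaned the other way (7.78 and 7.43). Summed blood and endothelium markers were higher on knockout arrays, at 9.70 to 9.93 against 9.24 to 9.63 and 9.58 to 9.87 against 9.39 to 9.47. Of these 9 genes, 4 were below the floor on every array. Of the 5 tested, 2 rose and 1 fell in knockout cells in control medium by limma, and 1 rose and 0 fell in Wnt3a medium. Cd34 averaged 5.51 on knockout and 6.02 on wild-type control arrays. The actin 3′ minus 5′ signal, a measure of RNA integrity, was 0.18 to 0.27 on wild-type arrays and 0.31 to 0.41 on knockout arrays. The same measure for Gapdh was -0.01 to 0.04 in each genotype in control medium. With Wnt3a it was -0.10 to -0.08 on wild-type and -0.08 to -0.04 on knockout arrays. A spiked-in bacterial transcript (dap) read 4.19 to 4.32 on all 6 control-medium arrays and 10.85 to 11.08 on all 6 Wnt3a arrays. Another (bioB) read 5.92 to 6.41 on control-medium and 8.46 to 8.96 on Wnt3a arrays. Medium therefore cannot be told apart from sample preparation or hybridisation. The part of these shifts in the results was not tested. Cells were measured in bulk, so fewer cells expressing a gene and less RNA per cell cannot be told apart.

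Loss of Tcf3 was compared first, in control medium. Of the 32 members tested, 8 rose and 4 fell in knockout cells, 12 in all. Across all genes tested, 42.2% passed the same threshold, 19.9% higher and 22.3% lower, so the members' share was near the background. The 8 that rose were Hk1, Pfkp, Aldoa, Aldoc, Pdk3, Bnip3, Ankrd37 and P4ha1, and the 4 that fell were Slc2a1, Eno3, Pfkfb3 and Egln1. The members' median difference was 0.07 on the log2 scale and that of all genes was 0.01. Of the 12 calls, 11 held whichever array was left out, and the exception was P4ha1.

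In Wnt3a medium the knockout cells differed from wild-type cells in 13 members, of which 10 were higher and 3 lower. The background was 28% of all genes, 13.2% higher and 14.7% lower. The median over members was 0.11 and that over all genes 0.01. Hk1, Pfkp, Aldoc, Pdk3, Bnip3 and Ankrd37 were higher in knockout cells in both media, and Slc2a1, Eno3 and Pfkfb3 lower in both, which makes 9 members with the same call in both comparisons. No member was called in opposite directions, and 16 were called in neither medium. Aldoa, P4ha1 and Egln1 passed only the control-medium test, and Tpi1, Pgk1, Pfkfb4 and Egln3 only the Wnt3a-medium test. None of these 7 had a called interaction by limma, so a difference between the media was not shown for them. Of the 13 calls, 6 held whichever array was left out.

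**Figure D1:**
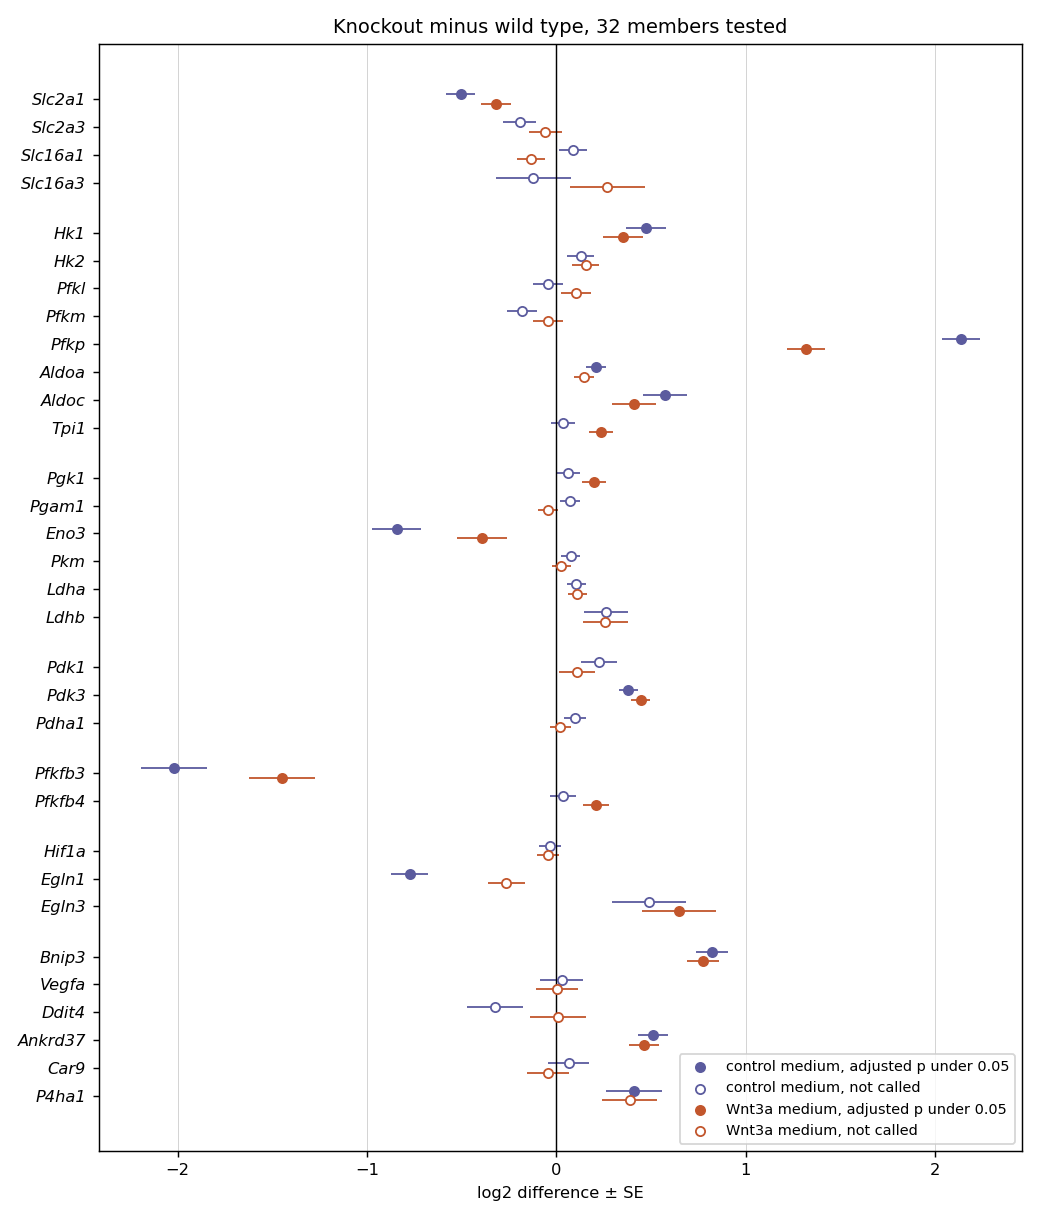
Difference between knockout and wild-type cells for the 32 tested members, on the x axis in log2 units, with control medium and Wnt3a medium as separate points; bars are the SE of the limma fit and filled points passed the adjusted p threshold. Pfkp lies farthest to the right at 2.14 and 1.32, and Pfkfb3 farthest to the left at -2.02 and -1.45.

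The response to Wnt3a was compared within each genotype. In wild-type cells 9 members rose and 7 fell after 24 h. The background was 41.5% of all genes, 18.9% higher and 22.6% lower. The 9 that rose were Slc2a1, Slc16a1, Pfkp, Aldoc, Ldhb, Pdk1, Pdha1, Bnip3 and P4ha1. Those that fell were Slc16a3, Pfkl, Tpi1, Eno3, Pfkfb3, Pfkfb4 and Egln3. The median over members was 0.01 and over all genes -0.02. Centring each array on its median turned the split over all genes from 45.6% higher among calls to 61.5%, and the members' split to 12 higher and 6 lower. Of the 16 calls, 10 held whichever array was left out, and the arrays behind the others (Ldhb, Pdha1, Bnip3, P4ha1, Eno3 and Egln3) are named with each gene. Another 6 members passed when an array of their own genotype was left out: Vegfa and Slc2a3 without wild-type control array 1 (adjusted p = 0.0411 and 0.0478), Car9, Ddit4 and Hk2 without wild-type control array 2 (0.0465, 0.0426 and 0.0288), and Ankrd37 without wild-type Wnt3a array 1 (0.0434). Of these, Slc2a3 also passed when its probe sets were averaged (0.00127) or when specific probe sets were used (0.000458), and Hk2 with median centring (0.0369).

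In knockout cells Wnt3a raised Slc2a1, Slc2a3, Ldhb and Egln1, and lowered Slc16a3, Hk1, Pfkl and Car9. These 8 members compare with 28% of all genes called, 13.3% higher and 14.7% lower. Median differences were 0.04 for members and -0.01 for all genes. With median centring the split over all genes moved from 47.5% higher among calls to 66.3%, and 10 members were then called higher and 0 lower, so the direction of this set as a whole depends on the scaling. Apart from Slc2a1, each of the 8 calls was lost when some array was left out. Leaving out knockout control array 3 removed all 7 of them. Other arrays with this effect were knockout control array 1 (Slc2a3, Egln1, Slc16a3, Hk1 and Car9), knockout control array 2 (Ldhb, Slc16a3, Hk1, Pfkl and Car9) and wild-type control array 3 (Slc2a3, Slc16a3, Hk1 and Car9). The same held for Wnt3a arrays: knockout array 1 (Slc2a3, Slc16a3, Hk1 and Pfkl), knockout array 2 (Slc2a3, Ldhb, Slc16a3, Hk1 and Car9), knockout array 3 (Slc2a3, Ldhb, Egln1 and Car9) and wild-type array 2 (Slc2a3, Slc16a3 and Hk1). The adjusted p of the lost calls lay between 0.0512 and 0.147. In the other direction, 7 members that did not pass with all arrays (Aldoc, Ankrd37, Bnip3, Egln3, Hk2, P4ha1 and Pdk1) passed when 1 of several arrays was left out.

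**Figure D2:**
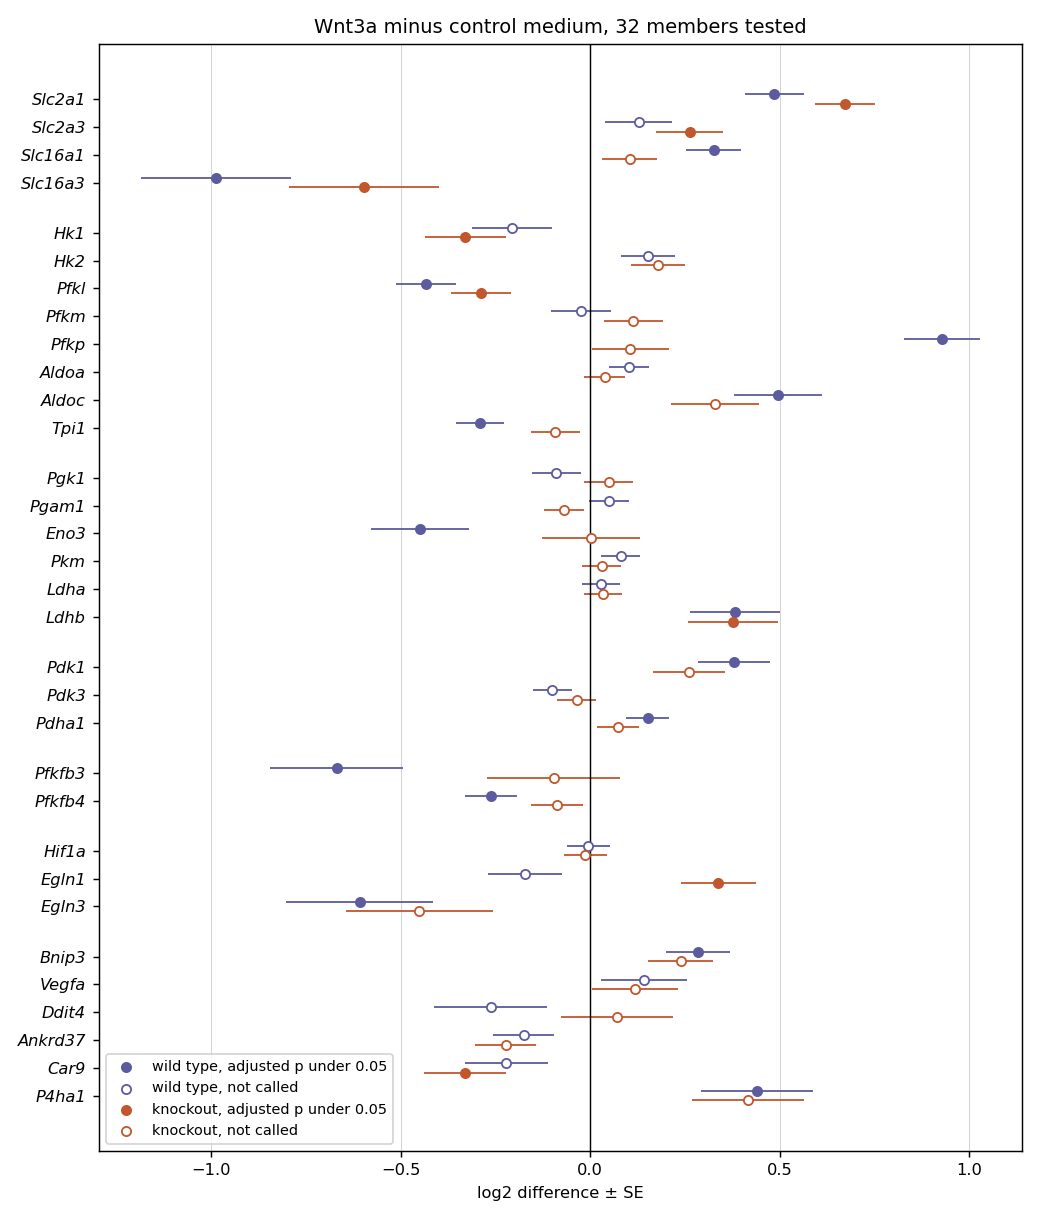
Difference between Wnt3a and control medium for the 32 tested members, on the x axis in log2 units, with wild-type and knockout cells as separate points; bars are the SE of the limma fit and filled points passed the adjusted p threshold. Slc2a1 lies to the right of 0 in both genotypes (0.49 and 0.67), while Pfkp does so clearly in wild-type cells only (0.93 against 0.11).

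The interaction, which is the Wnt3a difference in knockout cells minus that in wild-type cells, passed for 1 of 32 members against 4.08% of all genes (2.2% higher and 1.88% lower). That member was Pfkp, the platelet-type isoform of phosphofructokinase. The knockout and Wnt3a comparisons share the wild-type control arrays, so their values are set side by side here without a test of likeness.

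**Figure D3:**
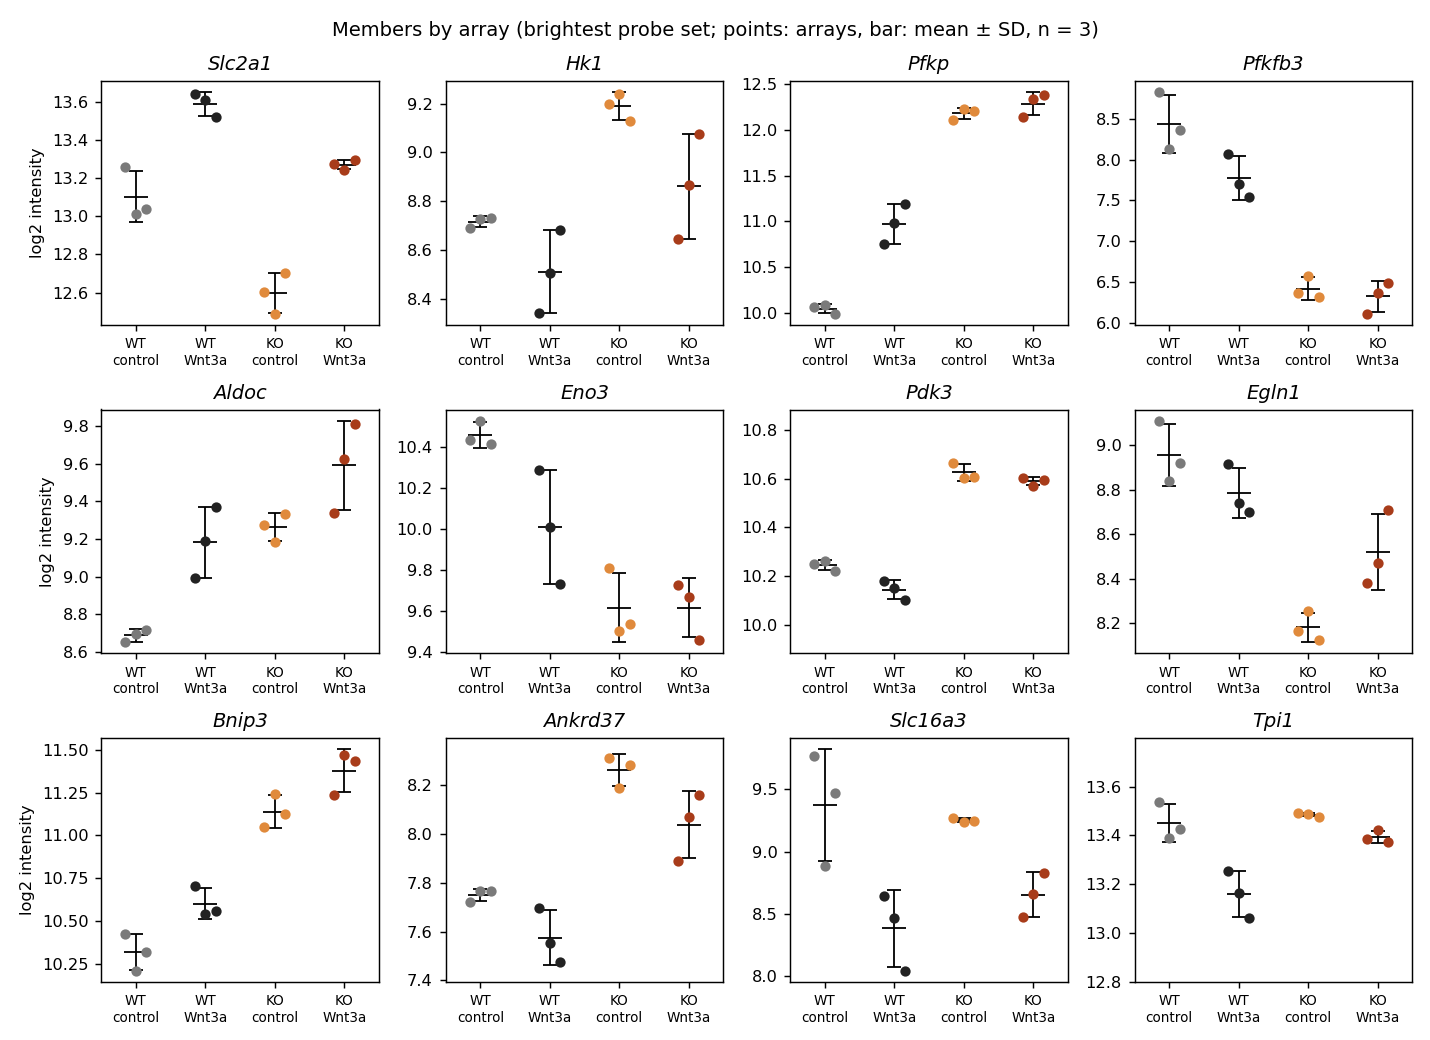
Log2 intensity on each of the 12 arrays, on the y axis for 12 members, in panels by gene, with the 4 groups along the x axis; points are arrays, bars are group means ± SD (n = 3), and each panel has its own y axis that does not start at 0. Pfkp is higher on every knockout array than on every wild-type array, and Pfkfb3 is lower.

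Glucose and lactate carriers came first in the pathway. Slc2a1 (GLUT1), the widespread basal glucose carrier, read 13.26, 13.01 and 13.04 on wild-type control arrays and 12.60, 12.49 and 12.70 on knockout control arrays. With Wnt3a it read 13.64, 13.61 and 13.52 in wild-type cells and 13.27, 13.25 and 13.30 in knockout cells. The groups did not overlap in any of the 4 pairwise comparisons, with wild-type Wnt3a arrays the highest and knockout control arrays the lowest. Such separation was common. Between genotypes it held for 7472 of 13811 genes and 18 of 32 members in control medium, and for 5888 and 14 in Wnt3a medium. Between media it held for 7299 genes and 21 members in wild-type cells, and for 6053 and 16 in knockout cells. Slc2a1 was 1.42-fold lower in knockout than in wild-type cells in control medium (SE 0.08 on the log2 scale, limma adjusted p = 0.000269) and 1.25-fold lower in Wnt3a medium (adjusted p = 0.0103). Wnt3a raised it 1.40-fold in wild-type cells (adjusted p = 0.000584) and 1.59-fold in knockout cells (adjusted p = 0.000219). All 3 probe sets of Slc2a1 gave the knockout difference in control medium, between -0.51 and -0.50. For Wnt3a they disagreed in size: the dimmer probe set 1426600_at differed by 0.05 in wild-type and 0.23 in knockout cells, and neither difference passed. The other 2 both passed for Wnt3a in each genotype in the fit over probe sets. Only 1426600_at has a name without a letter code (such as a, s or x). With it in place of the brightest, the Wnt3a calls were lost (adjusted p = 0.753 in wild-type and 0.19 in knockout cells). So was the genotype call in Wnt3a medium (0.0648). Whether such a letter reflects probes shared with other genes was not examined.

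Slc2a3 (GLUT3), the high-affinity carrier, was with Pgk1, Pkm and Ldha among the 4 tested members with the brightest probe sets. It read 14.13, 13.74 and 13.95 on wild-type control, 13.73, 13.83 and 13.68 on knockout control, 14.14, 14.05 and 14.02 on wild-type Wnt3a and 13.99, 14.01 and 14.03 on knockout Wnt3a arrays. Only the knockout arrays of the 2 media were separate. There Wnt3a raised it 1.20-fold (adjusted p = 0.043), a call lost without any of 7 arrays as listed above. Its 3 dimmer probe sets gave larger Wnt3a differences: 1.06 and 1.09 in wild-type and knockout cells for 1421924_at, 1.19 and 1.10 for 1427770_a_at, and 0.58 and 0.68 for 1455898_x_at, all past the threshold in a fit over probe sets. The highest log2 value of any probe set on the arrays was 15.14, and whether the brightest probe set is compressed was not tested. No Slc2a3 probe set differed between the genotypes in either medium, although without wild-type control array 2 the brightest passed in control medium (adjusted p = 0.00972).

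Lactate leaves cells through Slc16a carriers. Slc16a3 (MCT4), the exporter of strongly glycolytic cells, read 9.76, 8.88 and 9.47 on wild-type control and 9.27, 9.24 and 9.25 on knockout control arrays. After Wnt3a the values were 8.64, 8.47 and 8.05 in wild-type and 8.47, 8.66 and 8.83 in knockout cells. Every Wnt3a array was lower than every control array, and the genotypes overlapped in both media. Slc16a3 fell by 0.99 (SE 0.20) in wild-type cells, which is 1.98-fold (adjusted p = 0.00223), and 1.51-fold in knockout cells (adjusted p = 0.0417). Slc16a1 (MCT1) moved the other way and rose 1.25-fold in wild-type cells (adjusted p = 0.00421), while its difference in knockout cells was 0.10 (adjusted p = 0.309). With the mean of its probe sets the rise did not pass (adjusted p = 0.256). Its other probe set averaged 5.65, near the floor, and differed by -0.12 in wild-type cells. Neither carrier differed between genotypes past the threshold, with differences from -0.13 to 0.27.

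Among upper glycolytic genes, 4 of 8 rose in knockout cells in each medium and 0 fell by limma (at an unadjusted p under 0.05, 1 fell in control medium and 0 in Wnt3a medium). The shares of all genes that rose and fell were 19.9% and 22.3% in control medium and 13.2% and 14.7% in Wnt3a medium. Pfkp gave the largest difference of any member. It read 10.06, 10.09 and 9.99 on wild-type control arrays and 12.11, 12.23 and 12.21 on knockout control arrays. With Wnt3a, wild-type arrays read 10.75, 10.98 and 11.19 and knockout arrays 12.15, 12.34 and 12.38. Wild-type arrays were thus lowest in control medium and intermediate with Wnt3a, while the knockout arrays of both media overlapped at the top. Group means were 10.04 ± 0.05, 12.18 ± 0.06, 10.97 ± 0.22 and 12.29 ± 0.13 (SD, n = 3), in the order wild-type control, knockout control, wild-type Wnt3a and knockout Wnt3a. The knockout difference was 4.41-fold in control medium (adjusted p = 1.24e-07) and 2.49-fold in Wnt3a medium (adjusted p = 5.61e-06). Wnt3a raised Pfkp 1.90-fold in wild-type cells (adjusted p = 5.21e-05), and in knockout cells the difference was 0.11 (SE 0.10, adjusted p = 0.466). The interaction was -0.82 (SE 0.14, limma adjusted p = 0.0128) and stayed between -0.93 and -0.72 over all alternatives run, with adjusted p from 0.00284 to 0.0459.

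Pfkp has 3 probe sets, and all 3 gave the knockout rise in control medium (2.14, 2.15 and 1.73), the knockout rise in Wnt3a medium (1.32, 1.34 and 0.97) and the interaction (-0.82, -0.81 and -0.76). For the Wnt3a response of knockout cells they differed. The probe set 1437759_at rose by 0.87 (adjusted p = 0.000177 in the fit over probe sets) where the brighter ones differed by 0.11 and 0.10. By each probe set the response was smaller in knockout than in wild-type cells, and the probe sets disagreed on how much of it was left.

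The other phosphofructokinase isoforms did not share this pattern. Pfkl, the liver-type isoform, read 11.63, 11.38 and 11.55 on wild-type control, 11.42, 11.52 and 11.50 on knockout control, 11.21, 11.07 and 10.98 on wild-type Wnt3a and 11.13, 11.23 and 11.21 on knockout Wnt3a arrays. All Wnt3a arrays lay below all control arrays. Pfkl fell 1.35-fold with Wnt3a in wild-type cells (adjusted p = 0.0013) and 1.22-fold in knockout cells (adjusted p = 0.0193), and its genotype differences were -0.04 and 0.10 in control and Wnt3a medium. With the dimmer 1453541_at (mean 6.77), the only Pfkl probe set without a letter code in its name, the wild-type fall no longer passed (adjusted p = 0.0599). Pfkm, the muscle-type isoform, differed by -0.18 between genotypes in control medium (adjusted p = 0.082, or 0.0462 without wild-type control array 1) and by -0.04 to 0.11 in the other comparisons.

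Of the hexokinase and aldolase genes, Hk1 and Aldoc rose in knockout cells in both media, Aldoa in control medium, and Hk2 passed in neither. Hk1, the constitutive hexokinase, read 8.69, 8.73 and 8.73 on wild-type control arrays and 9.20, 9.24 and 9.13 on knockout control arrays, and 8.34, 8.50 and 8.68 against 8.64, 8.86 and 9.08 with Wnt3a. The genotypes were separate in control medium and overlapped with Wnt3a. It was 1.39-fold higher in knockout cells in control medium (adjusted p = 0.00324) and 1.28-fold in Wnt3a medium (adjusted p = 0.0277). The second call was lost without wild-type Wnt3a array 1 or 2 or knockout Wnt3a array 2 or 3 (adjusted p from 0.0705 to 0.109). Wnt3a lowered Hk1 1.26-fold in knockout cells (adjusted p = 0.0373), while its other probe set gave a rise of 0.62 in wild-type cells (adjusted p = 0.00273 in the fit over probe sets) and 0.24 in knockout cells. Hk2, the inducible hexokinase, passed in no comparison, with differences from 0.13 to 0.18. It passed between genotypes in control medium without wild-type control array 2 (adjusted p = 0.0437).

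Aldoc, the brain-type aldolase, read 8.65, 8.70 and 8.71 on wild-type control, 9.28, 9.18 and 9.33 on knockout control, 8.99, 9.19 and 9.37 on wild-type Wnt3a and 9.34, 9.63 and 9.81 on knockout Wnt3a arrays. The wild-type control arrays stood below all others. Aldoc was 1.49-fold higher in knockout cells in control medium (adjusted p = 0.00168) and 1.33-fold in Wnt3a medium (adjusted p = 0.0208). In Wnt3a medium the groups overlapped, and the call was lost without wild-type Wnt3a array 1 or 2 or knockout Wnt3a array 2 or 3 (adjusted p from 0.0544 to 0.0856). Wnt3a raised it 1.41-fold in wild-type cells (adjusted p = 0.00541), and the difference in knockout cells was 0.33 (adjusted p = 0.0528). The other Aldoc probe set lay below the floor on every array (mean 3.98). Its differences from -0.08 to -0.01, none of them called, therefore say little about Aldoc. Aldoa, the main aldolase of most tissues, was 1.16-fold higher in knockout cells in control medium (adjusted p = 0.00723), by 4 of its 5 probe sets. In Wnt3a medium its difference was 0.14 (adjusted p = 0.062).

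Tpi1, which interconverts the triose phosphates, read 13.54, 13.39 and 13.43 on wild-type control, 13.49, 13.49 and 13.48 on knockout control, 13.25, 13.16 and 13.06 on wild-type Wnt3a and 13.39, 13.42 and 13.37 on knockout Wnt3a arrays. The wild-type Wnt3a arrays were lower than all 9 others. Tpi1 fell 1.22-fold with Wnt3a in wild-type cells (adjusted p = 0.00362) and was 1.18-fold higher in knockout than in wild-type cells in Wnt3a medium (adjusted p = 0.0169). The latter call was lost without wild-type Wnt3a array 3 (adjusted p = 0.0603) or knockout Wnt3a array 2 (adjusted p = 0.0606). The interaction of 0.20 did not pass (adjusted p = 0.224).

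Of the later glycolytic enzymes, Pgk1, Eno3 and Ldhb passed in at least 1 comparison. Pgk1, phosphoglycerate kinase, read 13.99, 13.78 and 13.87 on wild-type control, 13.94 on each knockout control, 13.85, 13.77 and 13.75 on wild-type Wnt3a and 13.93, 14.00 and 14.03 on knockout Wnt3a arrays. The genotypes were separate only with Wnt3a, where Pgk1 was 1.15-fold higher in knockout cells (adjusted p = 0.0384). That call was lost without array 3 of either control group, wild-type Wnt3a array 2 or 3, or knockout Wnt3a array 2 or 3 (adjusted p from 0.055 to 0.106). It was also lost with the mean of all probe sets (0.109), no filter (0.0527), only the arrays compared (0.0603) or a replicate block (0.0584). None of the 3 Pgk1 probe sets passed there in the fit over probe sets. Pkm, pyruvate kinase, read 13.88, 13.86 and 13.90 on wild-type control, 13.94, 13.98 and 13.95 on knockout control, 13.99, 13.93 and 13.95 on wild-type Wnt3a and 13.95, 14.00 and 14.01 on knockout Wnt3a arrays. Ldha, the lactate dehydrogenase subunit that favours lactate, read 13.85, 13.82 and 13.80, then 13.93, 13.94 and 13.92, then 13.87, 13.83 and 13.86, then 13.93, 13.96 and 13.99 in the same order of groups. Knockout Ldha arrays were above wild-type arrays in both media, by 0.11 in each, but neither difference passed (adjusted p = 0.113 and 0.121). Pkm differences were from 0.03 to 0.08 and those of Pgam1, phosphoglycerate mutase, from -0.07 to 0.07, and none passed.

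Gapdh was measured only by 3 array-control probe sets, left out of the gene fit. They read 14.47 to 14.64 over all arrays, and none passed in any comparison of the fit over probe sets, with differences from -0.04 to 0.12. Eno3, the muscle-type enolase, read 10.43, 10.53 and 10.41 on wild-type control, 9.81, 9.51 and 9.54 on knockout control, 10.29, 10.01 and 9.73 on wild-type Wnt3a and 9.73, 9.67 and 9.46 on knockout Wnt3a arrays. Wild-type control arrays were highest, both knockout groups low, and the wild-type Wnt3a arrays ran from near the control level down to that of the knockouts. In control medium Eno3 was 1.79-fold lower in knockout cells (SE 0.13 on the log2 scale, adjusted p = 0.000255) and 1.31-fold lower in Wnt3a medium (adjusted p = 0.041). It fell 1.36-fold with Wnt3a in wild-type cells (adjusted p = 0.0165), and in knockout cells the difference was 0.00 (adjusted p = 0.995). The call in Wnt3a medium was lost without array 3 of either control group, wild-type control array 1, wild-type Wnt3a array 1 or 2, or knockout Wnt3a array 2 or 3 (adjusted p from 0.0511 to 0.155). The Wnt3a call in wild-type cells was lost without wild-type Wnt3a array 3 (adjusted p = 0.0644). The interaction of 0.45 did not pass (adjusted p = 0.183), except without wild-type Wnt3a array 1 (adjusted p = 0.0495).

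Ldhb, the lactate dehydrogenase subunit that favours pyruvate, read 10.81, 10.84 and 10.69 on wild-type control, 11.20, 11.04 and 10.89 on knockout control, 11.05, 11.14 and 11.30 on wild-type Wnt3a and 11.21, 11.36 and 11.69 on knockout Wnt3a arrays. Wnt3a arrays were higher than control arrays of the same genotype without overlap. Ldhb rose 1.30-fold with Wnt3a in wild-type cells (adjusted p = 0.0232, lost without wild-type control array 3 or wild-type Wnt3a array 3 at 0.0826 and 0.0859) and 1.30-fold in knockout cells (adjusted p = 0.0345). Its genotype differences of 0.26 in each medium did not pass (adjusted p = 0.0976 and 0.129), although leaving out knockout Wnt3a array 3 gave 0.0402 in control medium and leaving out knockout Wnt3a array 1 gave 0.0448 in Wnt3a medium.

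At the entry of pyruvate into mitochondria, Pdk3 was higher in knockout cells in both media. Pdk3, a kinase that inactivates pyruvate dehydrogenase, read 10.25, 10.26 and 10.22 on wild-type control arrays and 10.67, 10.60 and 10.61 on knockout control arrays. With Wnt3a it read 10.18, 10.15 and 10.10 in wild-type and 10.60, 10.57 and 10.59 in knockout cells. The genotypes were separate in both media, with an SD of at most 0.04 in any group. Pdk3 was 1.30-fold higher in knockout cells in control medium (adjusted p = 9.71e-05) and 1.36-fold in Wnt3a medium (adjusted p = 9.79e-05), and its Wnt3a differences of -0.10 and -0.04 did not pass. Pdk1, the kinase best known as a Hif1a target, rose 1.30-fold with Wnt3a in wild-type cells (adjusted p = 0.00776), and its difference in knockout cells was 0.26 (adjusted p = 0.0587). Between genotypes the brightest Pdk1 probe set differed by 0.23 in control medium (adjusted p = 0.0757, or 0.0394 without wild-type control array 2). Its dimmer probe sets 1435836_at and 1423748_at were higher in knockout cells by 0.83 (adjusted p = 4.82e-05) and 0.41 (adjusted p = 0.00456) in the fit over probe sets. The remaining one, 1434974_at, differed by 0.02 but lay below the floor on every array.

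Pdha1, the catalytic subunit of pyruvate dehydrogenase, rose 1.11-fold with Wnt3a in wild-type cells (adjusted p = 0.0472). This call was lost without any array other than wild-type control array 2 or knockout control array 1 (adjusted p from 0.0522 to 0.142). Its other probe set gave a larger rise of 0.44 there (adjusted p = 0.000553 in the fit over probe sets). Pdk2 read 4.97 to 5.89 and Eno2, the neuronal enolase, 4.93 to 5.57 over the 12 arrays. Both lay above the floor on fewer than 3 arrays and were not tested.

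**Figure D4:**
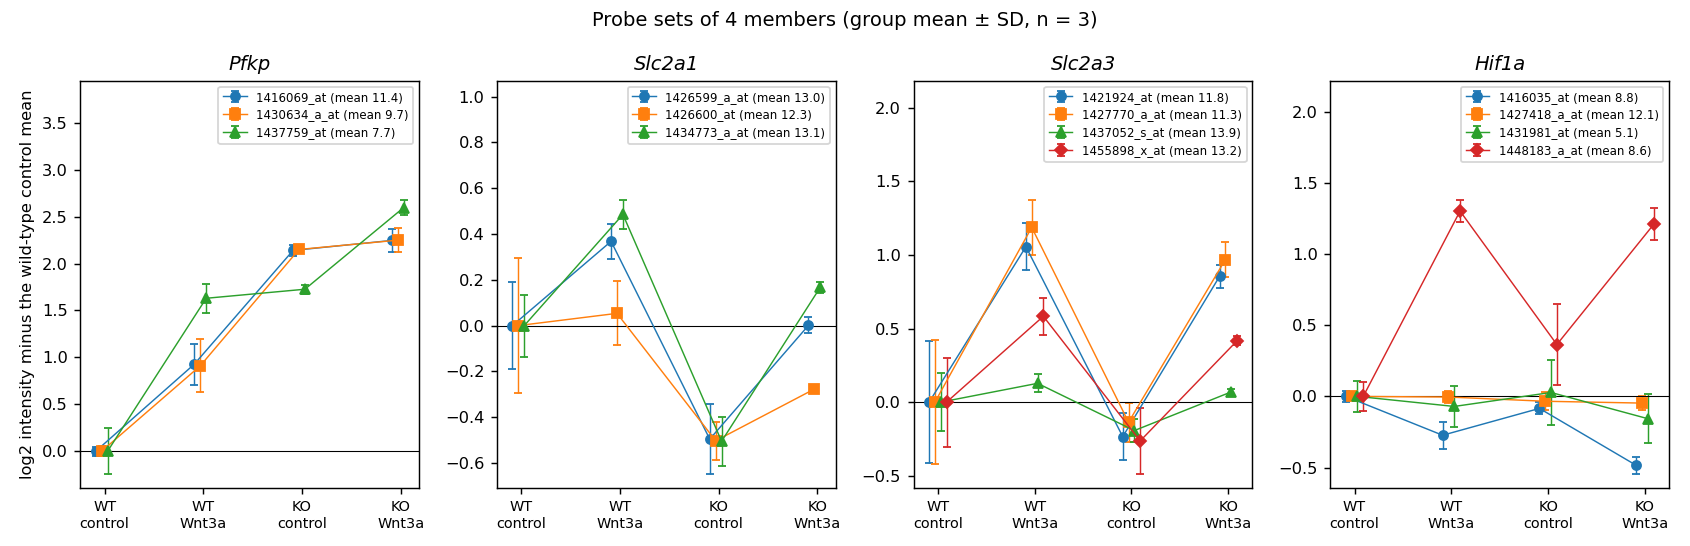
Log2 intensity minus the wild-type control mean, on the y axis, for each probe set of Pfkp, Slc2a1, Slc2a3 and Hif1a in the 4 groups along the x axis; points are group means, bars are ± SD (n = 3), and the legend gives each probe set's mean over all arrays. The Pfkp probe sets rise together in both knockout groups, while for Hif1a the probe set 1448183_a_at rises with Wnt3a by 1.30 in wild-type cells and 1416035_at falls by 0.27.

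The Pfkfb enzymes set the level of the activator of phosphofructokinase. Pfkfb3, the isoform whose kinase activity far exceeds its phosphatase activity, read 8.83, 8.13 and 8.36 on wild-type control arrays and 6.36, 6.57 and 6.32 on knockout control arrays. With Wnt3a the wild-type arrays read 8.07, 7.70 and 7.55 and the knockout arrays 6.11, 6.37 and 6.49. Knockout arrays were lower in both media by a wide margin, and wild-type Wnt3a arrays were below wild-type control arrays. Means were 8.44 ± 0.35, 6.42 ± 0.14, 7.77 ± 0.27 and 6.32 ± 0.19 (SD, n = 3) for wild-type control, knockout control, wild-type Wnt3a and knockout Wnt3a. In control medium Pfkfb3 was 4.06-fold lower in knockout cells (adjusted p = 3.8e-06) and 2.73-fold lower in Wnt3a medium (adjusted p = 0.000133). Wnt3a lowered it 1.59-fold in wild-type cells (adjusted p = 0.0102, or 0.0518 when its probe sets were averaged), and the difference in knockout cells was -0.10 (adjusted p = 0.723). The interaction of 0.57 did not pass (adjusted p = 0.208). The dimmer probe set 1456676_a_at gave smaller genotype differences, -0.42 in control medium (adjusted p = 0.00548 in the fit over probe sets) and -0.25 in Wnt3a medium (adjusted p = 0.11). Pfkp and Pfkfb3, the members with the largest genotype differences, thus moved in opposite directions in knockout cells.

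Pfkfb4, another isoform of this enzyme, fell 1.20-fold with Wnt3a in wild-type cells (adjusted p = 0.0101, or 0.0629 with median centring) and was 1.16-fold higher in knockout than in wild-type cells in Wnt3a medium (adjusted p = 0.0399). The second call was lost without array 3 of either control group, any of the wild-type Wnt3a arrays, or knockout Wnt3a array 2 or 3 (adjusted p from 0.0553 to 0.129). In control medium the genotypes differed by 0.04 (adjusted p = 0.72).

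Of the oxygen sensors, Egln1 and Egln3 leaned in opposite directions in knockout cells. Egln1 (PHD2), the main prolyl hydroxylase of Hif1a, read 9.11, 8.84 and 8.92 on wild-type control, 8.17, 8.25 and 8.12 on knockout control, 8.91, 8.74 and 8.70 on wild-type Wnt3a and 8.38, 8.47 and 8.71 on knockout Wnt3a arrays. Knockout control arrays were lowest, and with Wnt3a the genotypes overlapped. In control medium Egln1 was 1.71-fold lower in knockout cells (adjusted p = 5.75e-05), and its other probe set gave -0.58 (adjusted p = 0.00288 in the fit over probe sets). In Wnt3a medium the difference was -0.26 (adjusted p = 0.0632, or 0.0497 and 0.0189 without wild-type control array 1 or knockout Wnt3a array 3). Wnt3a raised it 1.26-fold in knockout cells (adjusted p = 0.024). The interaction of 0.51 did not pass (adjusted p = 0.0619), but did so without wild-type control array 2 (0.0437), wild-type Wnt3a array 1 (0.0365) or knockout Wnt3a array 1 (0.0428).

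Egln3 (PHD3), a hydroxylase that Hif1a itself induces, read 9.31, 9.70 and 9.57 on wild-type control, 10.11, 9.90 and 10.05 on knockout control, 8.83, 8.86 and 9.08 on wild-type Wnt3a and 9.04, 9.66 and 10.01 on knockout Wnt3a arrays. Wild-type Wnt3a arrays were lowest as a group, and the knockout Wnt3a arrays were widely spread. Egln3 fell 1.52-fold with Wnt3a in wild-type cells (adjusted p = 0.0258), a call lost without wild-type control array 2 or 3 or wild-type Wnt3a array 1 or 2 (adjusted p from 0.0676 to 0.0842). It was 1.57-fold higher in knockout cells in Wnt3a medium (adjusted p = 0.0271), a call lost without wild-type Wnt3a array 1 or 2 or knockout Wnt3a array 2 or 3 (adjusted p from 0.0775 to 0.0926). In control medium the difference of 0.49 did not pass (adjusted p = 0.0618), though it did without knockout Wnt3a array 1 (0.00667) or 3 (0.0218). Both Egln3 probe sets had the same sign in each of the 4 comparisons.

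The mRNA of Hif1a, the oxygen-regulated subunit of the hypoxia factor, did not pass in any comparison by its brightest probe set, which differed by -0.04 to 0.00. Its other probe sets disagreed on Wnt3a. The probe set 1448183_a_at rose by 1.30 in wild-type cells (adjusted p = 5.39e-06 in the fit over probe sets) and by 0.84 in knockout cells (adjusted p = 0.000348). Another, 1416035_at, fell by 0.27 (adjusted p = 0.00808) and by 0.40 (adjusted p = 0.00136). These were the only 2 cases among the 4 pairwise comparisons and the interaction where called probe sets of a member opposed each other, and where each probe set lies in the Hif1a transcript was not examined here.

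Among other hypoxia-responsive genes, Bnip3 and Ankrd37 were higher in knockout cells in both media. Bnip3, a mitochondrial protein that promotes mitophagy, read 10.42, 10.21 and 10.32 on wild-type control, 11.05, 11.24 and 11.12 on knockout control, 10.70, 10.54 and 10.56 on wild-type Wnt3a and 11.23, 11.47 and 11.43 on knockout Wnt3a arrays. Knockout arrays were above wild-type arrays in both media without overlap. Bnip3 was 1.77-fold higher in knockout cells in control medium (SE 0.09 on the log2 scale, adjusted p = 1.35e-05) and 1.71-fold in Wnt3a medium (adjusted p = 6.83e-05). Wnt3a raised it 1.22-fold in wild-type cells (adjusted p = 0.0195), a call lost without wild-type control array 2 or 3 or wild-type Wnt3a array 1 (adjusted p from 0.0532 to 0.0688).

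Ankrd37, an ankyrin-repeat protein induced by Hif1a, read 7.72, 7.77 and 7.77 on wild-type control, 8.31, 8.19 and 8.28 on knockout control, 7.70, 7.55 and 7.47 on wild-type Wnt3a and 7.89, 8.07 and 8.16 on knockout Wnt3a arrays. Here too the genotypes were separate in both media. Ankrd37 was 1.43-fold higher in knockout cells in control medium (adjusted p = 0.000293) and 1.38-fold in Wnt3a medium (adjusted p = 0.00129), and its Wnt3a differences of -0.18 and -0.22 did not pass. P4ha1, a collagen prolyl hydroxylase subunit, read 8.62, 8.10 and 8.23 on wild-type control, 8.59, 9.05 and 8.54 on knockout control, 8.90, 8.75 and 8.62 on wild-type Wnt3a and 9.15, 9.18 and 9.10 on knockout Wnt3a arrays. The genotypes overlapped in control medium and were separate with Wnt3a. Its rise of 1.33-fold in knockout cells in control medium (adjusted p = 0.0404) was lost without array 2 of any of the 4 groups or wild-type control array 3 (adjusted p from 0.053 to 0.171). The rise of 1.36-fold with Wnt3a in wild-type cells (adjusted p = 0.031) was lost without wild-type control array 2 or 3 or wild-type Wnt3a array 1 or 2 (adjusted p from 0.0679 to 0.114). Its difference between genotypes in Wnt3a medium was 0.39 (adjusted p = 0.0697, or 0.0381 and 0.0331 without wild-type control array 1 or knockout control array 2).

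Car9, the membrane carbonic anhydrase often used as a hypoxia marker, was dim. It read 6.26, 5.88 and 6.04 on wild-type control, 6.07, 6.13 and 6.19 on knockout control, 5.83, 5.74 and 5.96 on wild-type Wnt3a and 5.92, 5.88 and 5.59 on knockout Wnt3a arrays. Knockout Wnt3a arrays were below knockout control arrays, a 1.26-fold fall (adjusted p = 0.0412), and the other comparisons did not pass. Vegfa, the angiogenic growth factor, read 7.07 to 7.49 over all arrays and did not pass in any comparison, with differences from 0.00 to 0.14. Ddit4, an inhibitor of mTORC1 also known as REDD1, read 10.53 to 11.12 on wild-type control arrays and did not pass either. Its difference of -0.32 in control medium had an adjusted p of 0.101, or 0.0214 without wild-type control array 2. Bnip3l was covered only by 3 probe sets shared with another symbol, and Eno1 and Gpi1 were not found under those names, so these 3 genes were not analysed here.

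The spread of the oxygen-linked members differed between the groups. For the 9 members of oxygen sensing and the other hypoxia-responsive genes, the median SD was 0.19 on wild-type control arrays, 0.07 on knockout control arrays, 0.11 on wild-type Wnt3a arrays and 0.14 on knockout Wnt3a arrays. Over all genes tested the 4 medians were 0.09, 0.09, 0.09 and 0.10, so the members' median was above that of all genes in 3 groups and below it on knockout control arrays. On wild-type control arrays, array 1 was the highest of the 3 for 6 of these 9 members and for 34% of all genes. On knockout control arrays, array 2 was the highest for 6 of the 9 and for 25.5% of all genes. On knockout Wnt3a arrays, array 3 was the highest for 22 of the 32 members (68.8%), against 36.4% of all genes. Wild-type Wnt3a array 1 was the highest of its group for 21 of 32 members (65.6%), against 43% of all genes.

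Genes that act beside the members were read from 6 lists, 156 genes in all, of which 129 passed the filter. In control medium 61 of the 129 were called between genotypes, against 42.2% of all genes. Of these 61, 51 kept the call whichever array was left out. Among 23 other glycolytic isozymes and glucose carriers, 8 rose and 2 fell in knockout cells in control medium, with a median difference of 0.14 against 0.01 over all genes. Of all genes, 19.9% rose and 22.3% fell there. Ldhal6b, a lactate dehydrogenase-like gene, was 2.77-fold higher (adjusted p = 2.82e-05), and Tigar, which lowers fructose-2,6-bisphosphate, 1.85-fold (adjusted p = 1.13e-05). In Wnt3a medium 5 rose and 1 fell, against 13.2% and 14.7% of all genes. Wnt3a raised 6 and lowered 3 in wild-type cells (18.9% and 22.6% of all genes). In knockout cells it raised 4 and lowered 6 (13.3% and 14.7% of all genes).

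Of the 11 genes of pyruvate entry into mitochondria that were tested, 4 rose in knockout cells in control medium, 4 in Wnt3a medium, 7 with Wnt3a in wild-type cells and 3 with Wnt3a in knockout cells, and 0 fell in these 4 comparisons. Of all genes, 19.9%, 13.2%, 18.9% and 13.3% rose and 22.3%, 14.7%, 22.6% and 14.7% fell in the same order. Their medians were 0.14, -0.02, 0.26 and 0.13 in that order. At an unadjusted limma p under 0.05 the falls numbered 1, 0, 0 and 0. Mpc1, a subunit of the mitochondrial pyruvate carrier, was 2.22-fold higher in knockout cells in control medium (adjusted p = 0.000166) and rose 1.80-fold with Wnt3a in wild-type cells (adjusted p = 0.00206). Pdp1, a phosphatase that reactivates pyruvate dehydrogenase against the Pdk kinases, was 1.64-fold higher in knockout cells in control medium (adjusted p = 0.000947). Pdha2, the testis form of the catalytic subunit, was below the floor on average in wild-type cells and at least 1.35-fold higher in knockout cells (adjusted p = 4.57e-05). Cs, citrate synthase, rose 1.34-fold with Wnt3a in knockout cells (adjusted p = 0.00162), but not by a probe set without a letter code in its name (adjusted p = 0.911).

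Of 15 genes of gluconeogenesis and glycogen, 7 rose and 4 fell in knockout cells in control medium, with a median of 0.24. There 19.9% of all genes rose and 22.3% fell. Gyg, the glycogenin that primes glycogen, was 2.97-fold lower (adjusted p = 9.57e-06). Stbd1, which binds glycogen, was at least 2.96-fold lower (adjusted p = 2.35e-06), since its knockout mean lay below the floor. Fbp2, a fructose bisphosphatase, was 1.88-fold higher (adjusted p = 1.81e-05), and Pcx, pyruvate carboxylase, 1.87-fold higher (adjusted p = 4.05e-05). In Wnt3a medium 5 rose and 3 fell, against 13.2% and 14.7% of all genes. Of 17 genes of the pentose phosphate and serine branches, 5 rose and 2 fell in control medium, among them Phgdh, the entry enzyme of serine synthesis, at 1.61-fold lower (adjusted p = 0.000177). In wild-type cells Wnt3a raised 8 of the 17 and lowered 2, and Psph, the last enzyme of serine synthesis, rose 1.79-fold (adjusted p = 2.48e-05), where 18.9% of all genes rose and 22.6% fell.

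Of 17 HIF factors and regulators, 3 rose and 3 fell in knockout cells in control medium, where 19.9% of all genes rose and 22.3% fell. Cited2, a competitor of Hif1a for its coactivators, was 1.83-fold lower (adjusted p = 0.000136) and also 1.75-fold lower with Wnt3a in wild-type cells (adjusted p = 0.000428). Arnt, the constant partner of Hif1a, was 1.41-fold higher in knockout cells (adjusted p = 0.000105). Epas1, which encodes Hif2a, fell 1.68-fold with Wnt3a in wild-type cells (adjusted p = 0.00827). Among 47 further hypoxia-responsive genes, 14 rose and 10 fell in knockout cells in control medium, with a median of 0.02, so they had no common direction. The largest differences among them in control medium were falls in Pdgfb, a growth factor, by 4.62-fold (adjusted p = 6.67e-06), and in Bhlhe40, a transcriptional repressor, by 4.44-fold (adjusted p = 1.38e-05). Wnt3a raised 11 and lowered 15 of the 47 in wild-type cells (18.9% and 22.6% of all genes). In knockout cells it raised 8 and lowered 6 (13.3% and 14.7% of all genes). The share of each list called is read against the shares of all genes given above for the same comparison, and no list was tested as a set.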

How the data were processed

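RNA from 12 samples was hybridised to Affymetrix arrays. The authors deposited a table of processed intensities for 45101 probe sets, on a linear scale, made with RMA of unstated version per the submitters' processing notes. Other settings and scan batches were not given in the sources used. Log2 was taken of the deposited intensities, with no pseudocount. Names came from the platform annotation of the probe sets: 34945 carried 1 symbol, 932 several, 9160 were not listed and 64 were array controls, which were left out of the gene fit. Each gene was represented by its brightest probe set and kept if 3 or more of 12 arrays exceeded the 40th percentile (5.56 on the log2 scale, an intensity of 47.2), which left 13811 of 18193 genes. That floor also stands in for a group mean below it, and such a fold is written as at least N-fold. Array medians were 68.4 to 73.4, and 3 arrays per group limit the precision: the median SE of a knockout difference was 0.0886.

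In R 4.3.3, limma 3.58.1 (lmFit, eBayes, two-sided) fitted a mean per group over all 12 arrays, for 4 pairwise comparisons and their interaction, with Benjamini-Hochberg adjustment over all genes tested and a threshold of 0.05. A second fit ran over all probe sets of 1 symbol without a filter, and its adjusted p-values differ slightly. The fit was tested on simulated data.

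All 38 members were accounted for. Values on each array are given for up to 8 members per comparison with the largest called change and no overlap between groups, for members with a called interaction and for the 4 brightest. From the related lists up to 4 called genes per comparison were named. Members and lists were chosen with earlier results of these data known. Promoter windows came from RefSeq (GRCm38.p6), where 36 of 38 symbols matched. Alternatives were the mean of all probe sets, specific probe sets, no filter or a filter at the 60th percentile, median centring, repeated quantile normalization, a trended robust prior, only the arrays compared, a replicate block, and leaving out each array. Specific probe sets are those without a letter code (a, f, g, s or x) in their names, where a gene had any.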

Additional observations from a re-analysis of the deposited data

Results flagged for a closer look

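Pfkp stood out because its response to Wnt3a differed between the genotypes by the interaction test, at -0.82 on the log2 scale (limma adjusted p = 0.0128). The 3 wild-type control arrays were all below the 3 wild-type Wnt3a arrays, while the knockout arrays of the 2 media overlapped. No cause was tested.

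The same test picked out 14 of the 129 tested genes of the related lists, where 4.08% of all genes passed. Values are again the Wnt3a difference in knockout cells minus that in wild-type cells, with limma adjusted p-values from 0.00904 to 0.0479. The positive values were 1.19 for Cited4, 1.17 for Stbd1, 0.97 for Plin2, 0.93 for Anxa2 and 0.48 for Adm. The negative values were -0.94 for Tktl1, -0.79 for Kdm3a, -0.67 for Fbp2, -0.65 for Tigar, -0.60 for Mxi1, -0.58 for Rcor2, -0.47 for Ak4, -0.43 for Shmt2 and -0.37 for Cul2. Stbd1 lay below the floor in a knockout group, so its value depends on signal at background. Rcor2, Adm and Ak4 fall outside the naming rule and were named after their values were seen. Of the 14, Ak4, Anxa2, Mxi1 and Rcor2 passed whichever array was left out, but Anxa2 dropped to 0.37 and did not pass with the mean of all probe sets (adjusted p = 0.0827). The others were lost without 2 to 9 arrays each. For Cited4 these were wild-type control array 1 (adjusted p = 0.0502) and wild-type Wnt3a array 2 (0.0522). For Tigar they were wild-type control array 3 (0.0587), knockout control array 1 (0.0516) and wild-type Wnt3a array 2 (0.0514). For Adm, Cul2, Fbp2, Kdm3a, Plin2, Shmt2, Stbd1 and Tktl1 they included wild-type control arrays 1 and 3, knockout control array 1 and wild-type Wnt3a array 2, with adjusted p-values from 0.0504 to 0.124 over the arrays that mattered. With a probe set that has no letter code in its name, Cited4, Cul2, Tktl1 and Shmt2 did not pass (0.959, 0.993, 0.723 and 0.113).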

How the results depend on the processing

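The number of members called was 12 and 13 for the knockout effect in control and Wnt3a medium, 16 and 8 for the Wnt3a effect in wild-type and knockout cells, and 1 for the interaction. It moved by over 1.5 times in 4 cases besides left-out arrays: to 8 for the knockout effect in Wnt3a medium with only the arrays compared, to 13 for the Wnt3a effect in knockout cells with a trended robust prior, and to 2 for the interaction with that prior and with repeated quantile normalization. Leaving out 1 array gave 11 to 15, 6 to 14, 11 to 17, 1 to 10 and 1 to 3 in the order above. The lowest value for the Wnt3a effect in knockout cells, 1, came without knockout control array 3. It was 3 without knockout control array 1 or knockout Wnt3a array 2, 4 without wild-type control array 3, and 5 without knockout control array 2 or wild-type Wnt3a array 2. Cases of a member whose called probe sets opposed each other in a comparison numbered 2, both of Hif1a, and 2 to 3 over left-out arrays. For Hif1a the Wnt3a difference in wild-type cells turned from 0.00 to 0.24 (limma adjusted p = 0.00205) with the mean of all probe sets, by construction from its disagreeing probe sets.

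With the replicate number as a block the counts were 14, 11, 15, 6 and 1. The values showed no clear pairing by number. Deviations of same-numbered arrays correlated from -0.26 to 0.24, with 4 of 18 over 0.1, and 1 of 12 arrays correlated best with its own number in every other group. Whether same-numbered samples were prepared together cannot be told from these correlations. For single members, 1258 values kept their direction and side of the threshold, 48 lost and 58 gained the call, 33 moved (a value without a call that changed sign, or a total past 1.5 times) and 1 reversed over the alternatives that keep all arrays, counting the totals above. The lowest signals limit Car9, Eno2, Pdk2, Stbd1 and Pdha2.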
